A study of Mus musculus with 24 samples.

Results

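Gene expression of the enzymes that make cholesterol and fatty acids, with the regulators of these genes, was examined in distal lung tissue of mice treated with bleomycin (BLM), with or without EXT5 or EXT9. The 36 genes were listed by name and cover the mevalonate steps, the steps from squalene to cholesterol, the SREBP regulators, fatty acid synthesis, the desaturases and elongases, and the entry of fatty acids into glycerolipids. Of these, 33 had at least 1 probe annotated to them on the Illumina MouseWG-6 v2 chip, 58 probes in all among 45281, and 49 probes of 32 genes passed the filter on dim probes. All 9 probes that did not pass, including the 1 probe of *Acaca*, were not tested, and *Hmgcs1*, *Fdft1* and *Acat2* had no annotated probe and were not analysed here. Every mouse was a female C57BL/6 animal, 12.5 weeks old, and each group held 6 mice with 1 array per mouse. The Saline group received physiological saline s.c. and vehicle (Tween80 2.5%) p.o., and the BLM group received 50 IE of BLM s.c. per dose, 3 times per week for 2 weeks, with the same vehicle. The EXT5 and EXT9 groups received the same BLM injections together with EXT5 or EXT9, both 5-HT2B receptor antagonists, daily at 30 mg/kg p.o. from the first BLM dose. No group received EXT5 or EXT9 without BLM, so that an effect of either compound on untreated lung was not measured.

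Cholesterol is built from acetyl-CoA through mevalonate, farnesyl pyrophosphate, squalene and lanosterol, and fatty acids are built from acetyl-CoA through malonyl-CoA, after which they are elongated and desaturated. Both routes are switched on by sterol regulatory element-binding proteins, of which the product of *Srebf2* acts mainly on cholesterol genes and that of *Srebf1* mainly on fatty acid genes. These proteins are held in the endoplasmic reticulum by SCAP and INSIG1 when sterols are plentiful. In the lung, alveolar type 2 cells use the same routes to make the lipids of surfactant, and ABCA3 loads those lipids into lamellar bodies.

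Signals are given as log2 of the normalized intensity, and differences as differences of these values, so that 1 unit is a doubling. No label names a run, so 2 runs were inferred from the sorted deposited values. The split differs from the 5 repeated arrays that the design text implies. Saline 1, 3 and 5 with BLM 2, 3 and 5 fell in the first run, and all others, including every EXT array, in the second. The run was therefore a term of the fit, and each comparison with an EXT group rests on the second-run arrays of Saline or BLM more than on those of the first run. A probe was called at a limma adjusted p under 0.05 over all 22640 tested probes. Surfactant genes, which mark distal lung, were bright on every array, with a summed linear signal of 60520 to 98019 over 13 genes. Saline 6 stood apart from the other second-run Saline arrays: its summed signal was 10041 for smooth muscle markers and 5296 for ciliated cell markers, against 21654 and 22409, and 13675 and 13993, in Saline 2 and 4. On 4 arrays, Saline 4, BLM 1, BLM 5 and EXT5 3, the adipocyte gene *Adipoq* lay between 8.14 and 9.70, whereas it lay between 6.55 and 7.25 on the other arrays. In whole tissue, fewer cells of a type and less RNA per cell cannot be told apart.

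No member was called with BLM alone. None of the 49 probes was called against Saline with limma, in a comparison where 0.305% of all probes were called higher and 0.168% lower. An unadjusted p under 0.05 was found for 5 of the 49, and for 2685 of all 22640 tested probes. The median difference over the 32 genes was 0.03. The smallest p values were those of *Hsd17b7* (0.30, SE 0.10, adjusted p = 0.19) and of the dimmer *Srebf2* probe ILMN_1234082, with a difference of -0.22 (SE 0.05, adjusted p = 0.061), while the brighter *Srebf2* probe differed by 0.03. Both were called when Saline 6 was left out, and with array weights. In the other role groups the smallest p belonged to *Elovl5* (0.26), *Mvd* (0.14), *Acsl4* ILMN_2690135 (0.12) and *Me1* (-0.09). Tested as an interaction, a difference in the BLM effect between the 2 runs was not called for any member probe.

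With EXT5, 10 probes of 8 genes were higher than in Saline and 1 probe of *Sqle* was lower. These are 20.4% and 2.04% of the 49 probes, where 5.32% and 5.63% of all probes were called. With EXT9, 10 probes of 9 genes were higher and 2 probes, both of *Sqle*, were lower, 20.4% and 4.08% against 7.78% and 8.37% of all probes. The median over the 32 genes was 0.09 in both comparisons, and the median over 12057 genes was 0.00. *Fdps*, *Pmvk*, *Mvd*, *Lss*, *Hsd17b7*, *Elovl1* and *Acsl4* were called higher with both compounds, whereas *Scd1* was called with EXT5 and *Cyp51* and *Srebf1* with EXT9. Both comparisons use the same Saline arrays, so the 2 sets of calls are not independent of each other. Without Saline 6, 16 probes were called in each of the 2 comparisons, and with the 4 arrays of high *Adipoq* left out 5 and 6, all higher.

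Against BLM, 6 probes of 4 genes were higher and 1 was lower with EXT5, 12.2% and 2.04% of the probes against 2.35% and 1.94% of all. With EXT9, 5 probes of 5 genes were higher and 1 was lower, 10.2% and 2.04% against 2.79% and 2.32%. *Fdps*, *Pmvk* and *Lss* were higher with both compounds, and *Sqle* was lower with both. The median differences were 0.09 and 0.07. These counts rested on single arrays: without BLM 4, or without BLM 6, *Sqle* ILMN_2600348 alone stayed called for EXT5 and 3 probes for EXT9, and without Saline 6 the counts were 10 and 9. All 36 called differences in the 4 comparisons kept their sign within the second run alone, where 14 of them were called. Both fits hold the same EXT arrays and lean on the same second-run arrays of Saline and BLM, so the signs are not independent.

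**Figure D1:**
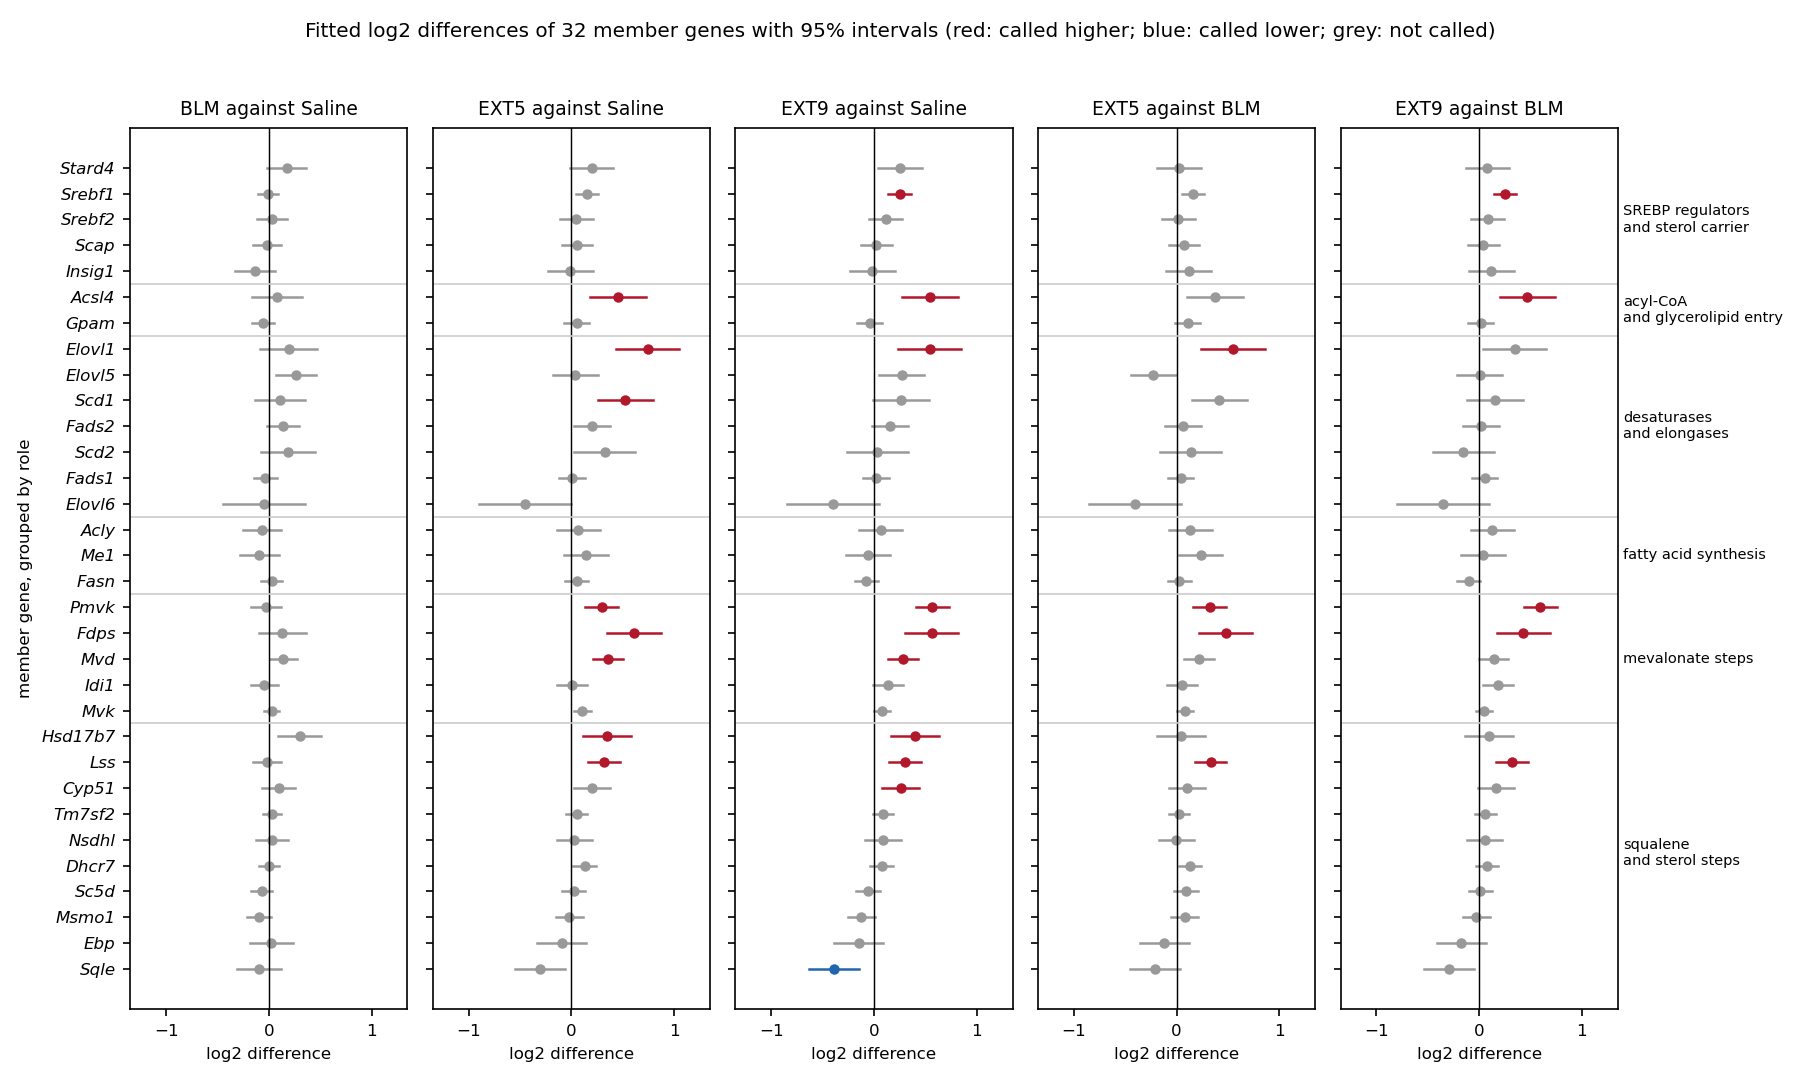
Fitted log2 difference of the brightest probe of each of 32 genes, 1 row per gene grouped by role, with 95% intervals as lines, with 1 panel per comparison: 3 against Saline and, for the compounds, 2 against BLM (x axis, log2). Red points were called higher and blue points lower at an adjusted p under 0.05. No point is coloured for BLM against Saline, and the mevalonate rows hold 3 red points of 5 against Saline with each compound.

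Most of the tested mevalonate genes rose. Of 5 genes, *Fdps*, *Pmvk* and *Mvd* were called higher than Saline with both compounds, and *Mvk* and *Idi1* were not called. Relative to Saline, the median difference over the 5 genes was 0.30 with EXT5, 0.28 with EXT9 and 0.03 with BLM alone. *Fdps* encodes farnesyl pyrophosphate synthase, which makes the last precursor shared by sterols and prenylated proteins. Its lowest, median and highest signals (ILMN_1225730) were 9.35, 9.74 and 10.17 in Saline, and 9.65, 9.84 and 10.03 in BLM. They were 10.10, 10.35 and 10.51 in EXT5, and 10.15, 10.26 and 10.56 in EXT9. All 12 EXT arrays lay above all BLM arrays, and among the Saline arrays only Saline 6 reached their range. The difference from Saline was 0.61 (SE 0.12, adjusted p = 0.0036) with EXT5 and 0.56 (SE 0.12, adjusted p = 0.0046) with EXT9. Against BLM it was 0.48 (adjusted p = 0.034) and 0.43 (adjusted p = 0.047), and within the second run alone neither was called (adjusted p = 0.072 and 0.081). A dim *Fdps* probe, ILMN_1232741, had medians between 6.74 and 6.82 in the 4 groups and was not called.

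*Pmvk* encodes phosphomevalonate kinase, which adds the second phosphate to mevalonate. Its signals were 7.44, 7.52 and 7.66 (lowest, median, highest) in Saline, 7.31, 7.51 and 7.74 in BLM, 7.53, 7.79 and 7.91 in EXT5, and 7.91, 8.03 and 8.22 in EXT9. All EXT9 arrays lay above all Saline and BLM arrays, while EXT5 overlapped both. The EXT9 difference was 0.57 (SE 0.08, adjusted p = 6.85e-05) from Saline and 0.60 (SE 0.08, adjusted p = 0.00021) from BLM, and it was called under all 36 alternatives. With EXT5 the differences were 0.30 (adjusted p = 0.015) and 0.32 (adjusted p = 0.021). *Mvd* encodes mevalonate diphosphate decarboxylase, which forms isopentenyl pyrophosphate. It had medians of 7.33 in Saline, 7.52 in BLM, 7.63 in EXT5 and 7.52 in EXT9, with a lowest value of 7.14 in Saline and of 7.16 in BLM. The EXT arrays overlapped those of Saline and BLM. Its difference from Saline was 0.36 (SE 0.07, adjusted p = 0.0025) with EXT5 and 0.28 (SE 0.07, adjusted p = 0.0095) with EXT9, and it was not called against BLM (0.22 and 0.14). *Idi1*, the isomerase of the next step, and *Mvk*, the first kinase, lay near the filter limit of 6.71, with group medians between 6.79 and 7.02.

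**Figure D2:**
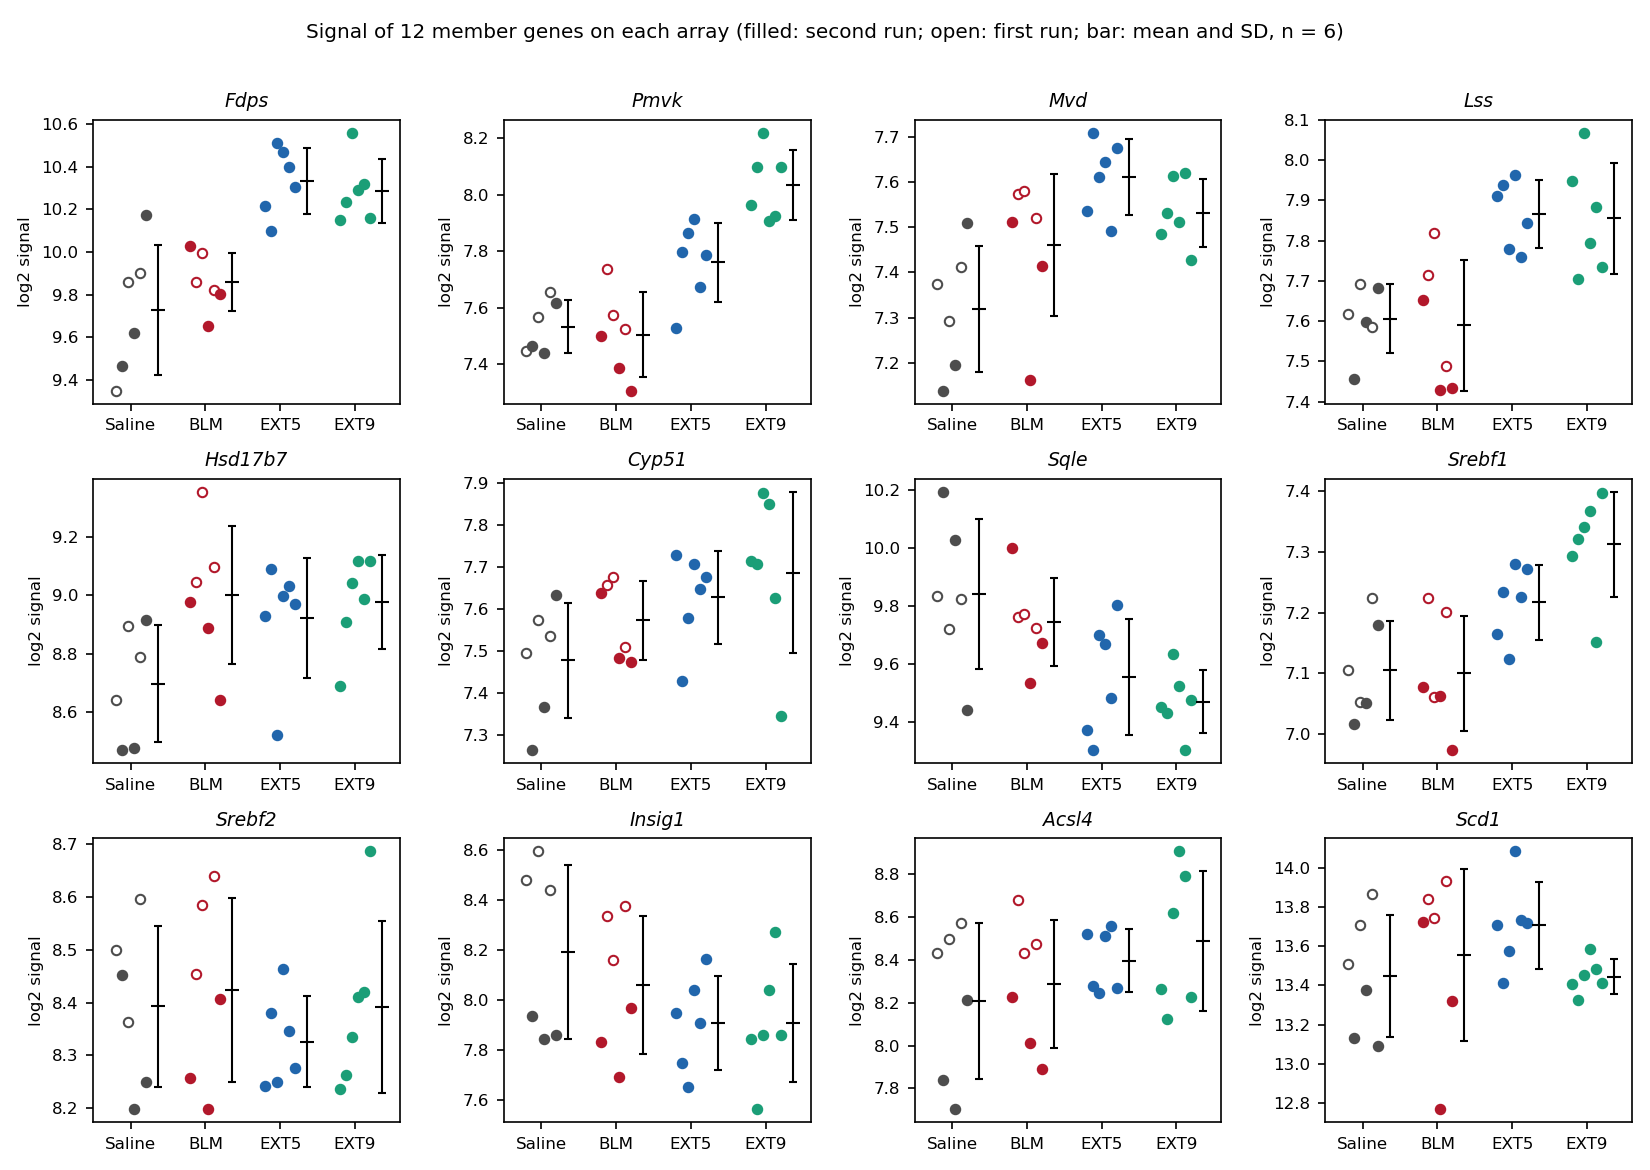
Log2 signal (y axis) of 12 genes on each of the 24 arrays, by group, with open points for the first run and filled points for the second. The bar beside each group is the mean and SD of 6 arrays. *Fdps* is higher on all EXT arrays than on all BLM arrays, *Pmvk* in EXT9 lies above all Saline and BLM arrays, and the first-run arrays of *Insig1*, *Acsl4* and *Scd1* lie above those of the second run in Saline.

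The steps from squalene to cholesterol split. Of 10 genes tested, *Lss* and *Hsd17b7* were called higher than Saline with both compounds and *Cyp51* with EXT9, *Sqle* was called lower with both, and *Dhcr7*, *Ebp*, *Msmo1*, *Nsdhl*, *Sc5d* and *Tm7sf2* were not called in any comparison. *Lss* encodes lanosterol synthase, which closes the sterol rings. Its probe ILMN_2614161 gave 7.46, 7.61 and 7.69 in Saline, 7.43, 7.57 and 7.82 in BLM, 7.76, 7.88 and 7.96 in EXT5, and 7.70, 7.84 and 8.07 in EXT9. Every EXT array lay above every Saline array, while the highest 2 BLM arrays reached the EXT range. The differences were 0.32 (EXT5, adjusted p = 0.0084) and 0.31 (EXT9, adjusted p = 0.0082) from Saline, and 0.33 (adjusted p = 0.017) and 0.32 (adjusted p = 0.015) from BLM, each with an SE of 0.07. A dim *Lss* probe, ILMN_1228641, with group medians between 6.84 and 6.89, was not called.

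*Sqle* encodes squalene epoxidase, the enzyme that first oxygenates squalene, and ran against the other called enzymes. Its probe ILMN_2600348 gave 7.22, 7.44 and 7.51 in Saline, 7.16, 7.41 and 7.52 in BLM, 6.91, 7.04 and 7.14 in EXT5, and 6.92, 7.07 and 7.21 in EXT9. All EXT arrays lay below all Saline arrays, and the lowest Saline value was that of Saline 6. The probe fell by 0.31 with EXT5 and by 0.30 with EXT9 from Saline (adjusted p = 0.0057 in both), and by 0.26 and 0.25 from BLM (adjusted p = 0.034 and 0.037), with an SE of 0.07. The brighter probe ILMN_2737163 fell by 0.39 with EXT9 from Saline (SE 0.12, adjusted p = 0.026), and its difference with EXT5 of -0.31 was not called (adjusted p = 0.10). With the 4 arrays of high *Adipoq* left out, no *Sqle* difference was called. Of those arrays, Saline 4 and BLM 1 held the highest ILMN_2600348 signals among the second-run arrays of their groups.

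*Hsd17b7*, which encodes a 3-ketosteroid reductase of the sterol C-4 demethylation complex, had medians of 8.71 in Saline, 9.01 in BLM, 8.98 in EXT5 and 9.01 in EXT9. All 4 groups overlapped, and the 3 BLM-treated groups had like medians. It was called for EXT5 (0.35, SE 0.11, adjusted p = 0.049) and EXT9 (0.40, SE 0.11, adjusted p = 0.018) against Saline, and its differences from BLM were 0.04 and 0.10. The EXT5 call held under 9 of 36 alternatives, and without the run term neither call held (0.23 and 0.28, adjusted p = 0.18 and 0.072). *Cyp51*, which encodes lanosterol 14-alpha-demethylase, had a difference of 0.26 with EXT9 from Saline (SE 0.09, adjusted p = 0.042), called under 18 of 36 alternatives, and of 0.20 with EXT5 (adjusted p = 0.15). *Ebp*, a sterol isomerase, had a lower median in both EXT groups (9.55 and 9.51) than in Saline (9.87) and BLM (9.91), and none of its differences was called.

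The promoters of 4 genes that were called higher are shown for the sequence elements known from sterol-regulated genes. RefSeq starts were found for 29 of the 36 genes (GRCm38.p6), and the 250 bases before each start were searched on both strands for 3 motifs that do not contain each other: the sterol regulatory element core TCACNCCAC, the E-box CACGTG and the CCAAT box. Each sequence is written 5′ to 3′ along the gene, with CCAAT boxes (read as ATTGG on the other strand) and the E-box in capitals.
Pmvk: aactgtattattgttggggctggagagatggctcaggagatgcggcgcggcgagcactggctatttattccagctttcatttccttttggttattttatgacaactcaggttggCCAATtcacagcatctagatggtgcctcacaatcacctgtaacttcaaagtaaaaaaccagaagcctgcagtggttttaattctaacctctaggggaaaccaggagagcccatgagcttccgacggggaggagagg
Mvd: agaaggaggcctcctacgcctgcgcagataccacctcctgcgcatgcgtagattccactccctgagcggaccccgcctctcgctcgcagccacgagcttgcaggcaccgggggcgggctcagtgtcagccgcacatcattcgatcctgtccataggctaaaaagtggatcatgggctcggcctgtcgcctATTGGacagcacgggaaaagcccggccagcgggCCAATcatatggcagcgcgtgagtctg
Lss: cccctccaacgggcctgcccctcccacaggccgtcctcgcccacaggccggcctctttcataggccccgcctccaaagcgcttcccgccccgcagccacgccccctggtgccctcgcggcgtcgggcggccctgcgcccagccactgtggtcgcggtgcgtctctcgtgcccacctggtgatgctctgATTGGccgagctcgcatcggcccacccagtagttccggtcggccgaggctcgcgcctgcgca
Hsd17b7: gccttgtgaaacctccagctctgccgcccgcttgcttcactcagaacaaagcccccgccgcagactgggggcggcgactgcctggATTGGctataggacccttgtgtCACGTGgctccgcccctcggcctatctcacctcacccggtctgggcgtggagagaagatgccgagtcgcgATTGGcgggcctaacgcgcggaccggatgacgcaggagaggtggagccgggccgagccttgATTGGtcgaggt
They lie at chr3:89454291-89454540 (plus strand) for *Pmvk* (of its 2 listed starts, the one that holds a motif), chr8:122443423-122443672 (minus strand) for *Mvd*, chr10:76531355-76531604 (plus strand) for *Lss* and chr1:169969206-169969455 (minus strand) for *Hsd17b7*. *Pmvk* and *Lss* hold 1 CCAAT box each, *Mvd* holds 2, and *Hsd17b7* holds 3 together with 1 E-box. A CCAAT box was found in 22 of the 29 members (75.9%) and in 37.5% of 27025 genes, an E-box in 6 members (20.7%) and in 6.86% of genes. The exact sterol regulatory element core was found in 1 member, *Hmgcs1*, and in 1.22% of genes. *Srebf1*, *Srebf2* and *Insig1* also held a CCAAT box, so that members called and not called in the comparisons held it. *Acsl4*, called higher with both compounds, held none of the 3 motifs. A match describes the letters of the window and shows no binding.

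Of the 5 regulators, *Srebf1* was called and *Srebf2*, *Scap*, *Insig1* and *Stard4* were not. The *Srebf1* probe ILMN_2792089 gave 7.02, 7.08 and 7.22 in Saline, 6.97, 7.07 and 7.22 in BLM, 7.12, 7.23 and 7.28 in EXT5, and 7.15, 7.33 and 7.40 in EXT9. Of the EXT9 arrays, 5 lay above all Saline and BLM arrays, and EXT9 5 lay within their range. The EXT9 difference was 0.25 from Saline (SE 0.05, adjusted p = 0.0032) and 0.25 from BLM (SE 0.05, adjusted p = 0.0077). With EXT5 it was 0.15 (adjusted p = 0.062) and 0.16 (adjusted p = 0.084). Probes of the gene cannot be assigned here to the *Srebf1* isoforms that act on fatty acid or on sterol genes, since their positions were not given.

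*Insig1*, itself a target of the SREBPs, differed by -0.01 from Saline with EXT5 and with EXT9 at its brightest probe (SE 0.11). Its signals there were 7.84 to 8.60 in Saline and 7.56 to 8.27 in EXT9, with first-run arrays high and all groups overlapping. *Scap*, which escorts the SREBPs to the Golgi, differed by 0.05 and 0.02 (SE 0.07). *Srebf2* differed by 0.05 and 0.11 (SE 0.08) at ILMN_1223598 and by -0.08 and -0.06 (SE 0.06) at ILMN_1234082. *Stard4*, a sterol carrier, had its largest difference with EXT9 from Saline, 0.25 (SE 0.10, adjusted p = 0.095), and was called there when Saline 6 was left out.

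None of the 3 tested genes of fatty acid synthesis was called in any comparison. *Acly*, which makes cytosolic acetyl-CoA from citrate, had medians of 11.63 in Saline, 11.68 in BLM, 11.85 in EXT5 and 11.87 in EXT9, and differed from Saline by 0.07 and 0.06 (SE 0.10). *Fasn*, the fatty acid synthase, was dim, with medians of 6.93, 6.93, 6.94 and 6.83, and its difference with EXT9 from Saline was -0.08 (SE 0.05). *Me1*, which supplies NADPH, differed from Saline by 0.14 and -0.06 (SE 0.10), and EXT5 differed from BLM by 0.23 (adjusted p = 0.20). The groups overlapped for all 3 genes.

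Among the 7 desaturases and elongases, *Elovl1* rose with both compounds and *Scd1* with EXT5, while *Scd2*, *Fads1*, *Fads2*, *Elovl5* and *Elovl6* were not called. *Elovl1* encodes an elongase of saturated very long chain fatty acids and had 4 tested probes. The brightest, ILMN_3143506, gave 11.71, 12.27 and 12.80 in Saline, 12.12, 12.48 and 12.65 in BLM, 12.67, 12.95 and 13.09 in EXT5, and 12.54, 12.70 and 12.98 in EXT9. All EXT5 arrays lay above all BLM arrays, and Saline 6 was the one Saline array within the EXT5 range. Its difference from Saline was 0.74 (SE 0.15, adjusted p = 0.0031) with EXT5 and 0.54 (SE 0.15, adjusted p = 0.017) with EXT9, and from BLM 0.55 (adjusted p = 0.040) and 0.35 (adjusted p = 0.17). The 4 probes differed in size. ILMN_2771824 gave 7.91, 8.24 and 9.79 in Saline and 9.40, 9.65 and 10.10 in EXT5, a difference of 1.18 (SE 0.28, adjusted p = 0.0096), and 0.51 with EXT9 (adjusted p = 0.24). ILMN_2723491 differed by 0.76 (SE 0.20, adjusted p = 0.017; 0.55 and adjusted p = 0.068 without the run term) and 0.44 (adjusted p = 0.15), and ILMN_1224780 was not called. All 4 probes were called for both compounds against Saline when Saline 6, the array with the highest *Elovl1* signal in Saline at 3 of the 4 probes, was left out. All target transcripts of 1 gene and are no independent evidence of each other.

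**Figure D3:**
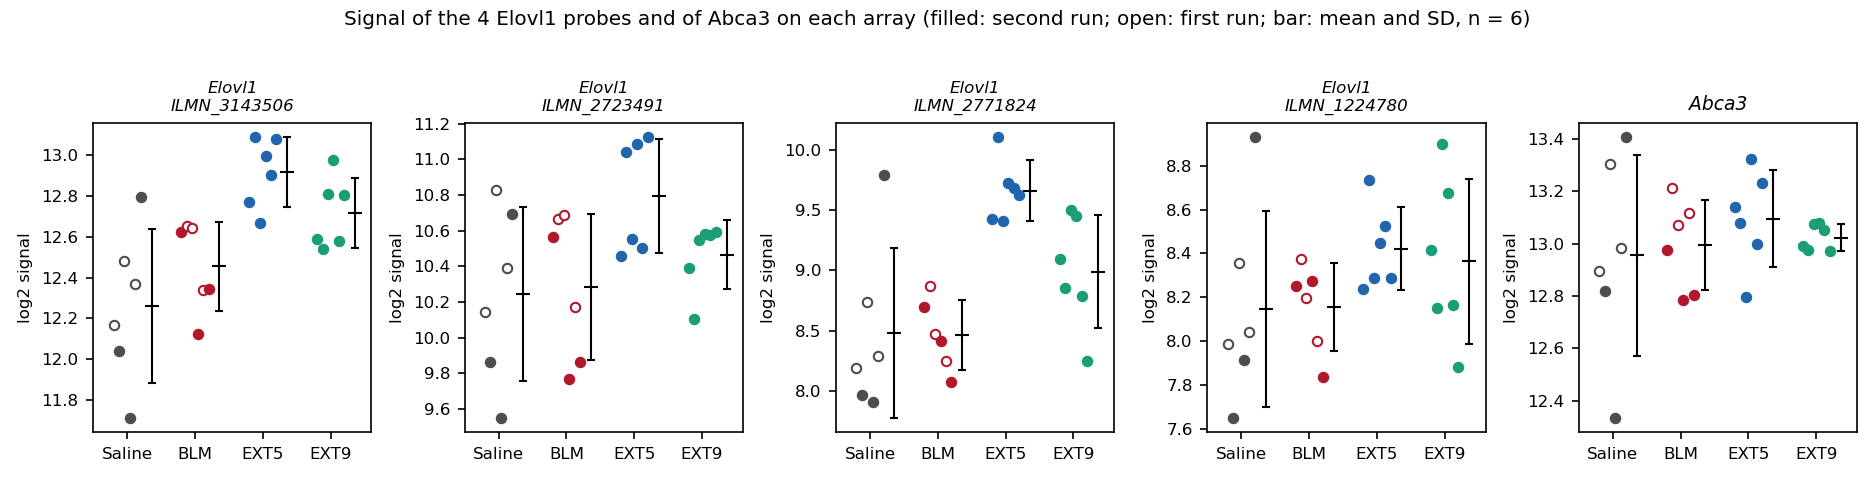
Log2 signal (y axis) of the 4 tested *Elovl1* probes, brightest first, and of the surfactant lipid transporter gene *Abca3* on each of 24 arrays by group, with open points for the first run, filled points for the second and the mean and SD of 6 arrays beside each group. EXT5 lies above BLM without overlap at ILMN_3143506 and ILMN_2771824, and Saline 6 is the highest Saline point at ILMN_3143506, ILMN_2771824, ILMN_1224780 and *Abca3*.

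*Scd1* encodes the stearoyl-CoA desaturase that makes monounsaturated fatty acids. Its signals were 13.09, 13.44 and 13.87 in Saline and 13.41, 13.71 and 14.08 in EXT5, and these groups overlapped, with the first-run Saline arrays high (13.51 to 13.87) and those of the second run low (13.09 to 13.38). The difference with EXT5 was 0.52 (SE 0.13, adjusted p = 0.011) in the fit with the run and 0.26 (adjusted p = 0.29) without it, and it was 0.51 (adjusted p = 0.076) within the second run. With EXT9 it was 0.26 (adjusted p = 0.18). *Acsl4*, which activates arachidonic acid and related fatty acids, showed the same dependence. Its brightest probe ILMN_3136205 gave 8.43 to 8.57 in Saline of the first run, 7.70 to 8.21 in Saline of the second, 8.25 to 8.56 in EXT5 and 8.13 to 8.91 in EXT9. The difference from Saline was 0.45 (SE 0.13, adjusted p = 0.027) with EXT5 and 0.55 (SE 0.13, adjusted p = 0.0074) with EXT9, and 0.19 and 0.28 without the run, neither called. ILMN_2690135 was called for EXT9 against Saline at 0.23 (SE 0.06, adjusted p = 0.010; 0.11 and adjusted p = 0.24 without the run) and ILMN_1244872 was not called. *Gpam*, which starts glycerolipid synthesis, was not called.

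*Elovl6*, which elongates palmitate, was high on single arrays. It gave 6.95, 7.19 and 8.65 in Saline, 7.06, 7.24 and 7.95 in BLM, 6.96, 7.00 and 7.36 in EXT5, and 7.01, 7.09 and 7.28 in EXT9. The highest array of the first 3 groups was in each case one of the 4 with high *Adipoq*. On those arrays *Adipoq* was 9.70 (Saline 4), 9.06 (BLM 1) and 9.50 (EXT5 3). The adipocyte markers, 12 genes of which 7 passed the filter, did not follow *Adipoq* in their sum. Over all arrays of each group they summed to 3979 to 6583 in Saline, 4511 to 7053 in BLM, 5215 to 6551 in EXT5 and 4590 to 6762 in EXT9. Saline 6 and BLM 2 held the highest sums of their groups, above Saline 4 (6174) and BLM 1 (6488). In EXT5 the highest sum was that of EXT5 3. The part of adipose tissue in these values was not tested. Over all 24 arrays, with the means of each group within each run taken off, *Elovl6* and *Adipoq* correlated with r = 0.83 and rho = 0.78, and r was 0.79 without the 2 arrays farthest from the *Adipoq* median. The permutation p was 0.0038 for r and 0.0022 for rho, which became 0.080 and 0.070 after adjustment over 64 relations of 32 genes with *Adipoq* and *Abca3*.

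The relation of *Elovl1* with *Abca3* was the one that passed that adjustment. It had r = 0.83 (permutation p = 0.0005, adjusted p = 0.032) and rho = 0.70 (permutation p = 0.0018, adjusted p = 0.070). Without the 2 arrays farthest from the *Abca3* median r was 0.61, and within the 18 second-run arrays it was 0.85, where no relation passed the adjustment (adjusted p = 0.13). Of the 64 relations, 9 had an unadjusted p under 0.05.

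**Figure D4:**
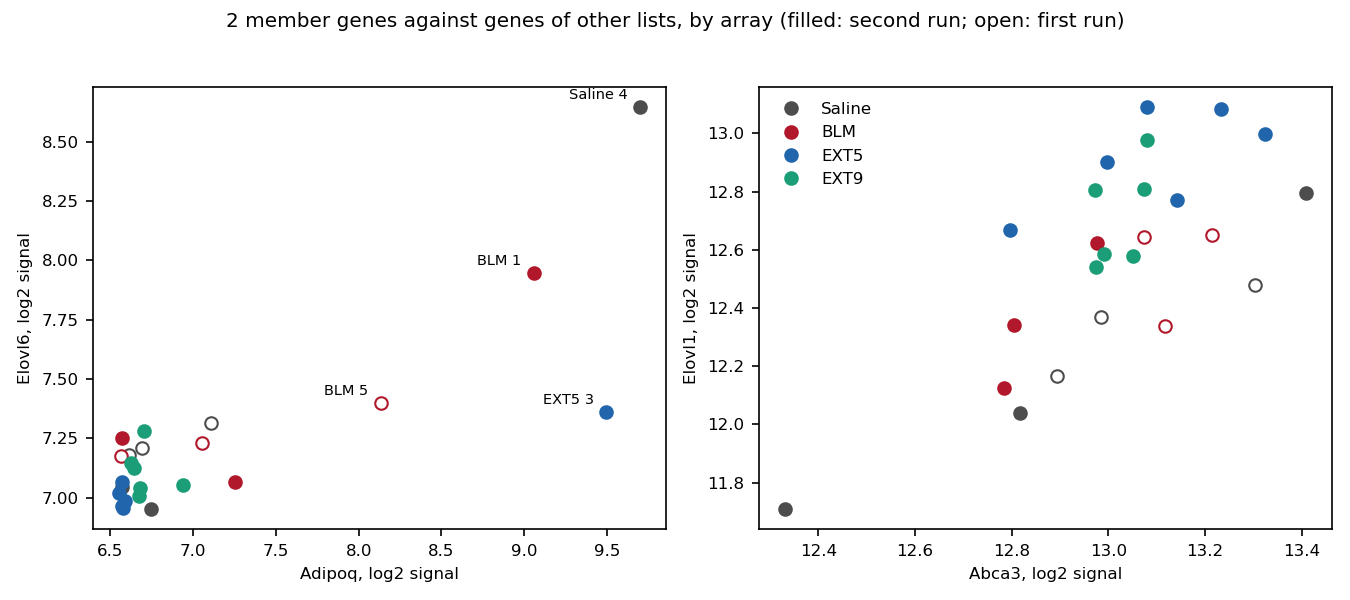
Log2 signal of *Elovl6* against that of *Adipoq* (left) and of *Elovl1* against that of *Abca3* (right), 1 point per array, coloured by group, with open points for the first run. On the left the 4 labelled arrays have *Adipoq* above 8, and Saline 4 and BLM 1 hold the highest *Elovl6* signals. On the right, EXT5 and EXT9 arrays overlap, and Saline 6 lies within their range of *Elovl1*.

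The 2 antagonists were given at the same dose and over the same time, and 49 probes were compared between them. None was called, where 0.177% of all probes were called higher in EXT9 and 0.269% lower. In limma, 8 of the 49 had an unadjusted p under 0.05, as had 2933 of all 22640 tested probes. *Pmvk* came closest, 0.27 higher with EXT9 than with EXT5 (95% interval 0.13 to 0.42, adjusted p = 0.071). *Elovl1* ILMN_2771824 was 0.67 lower with EXT9 (difference -0.67, 95% interval -1.20 to -0.14, adjusted p = 0.24) and *Scd1* 0.26 lower (difference -0.26, interval -0.50 to -0.02, adjusted p = 0.34). In the other role groups the smallest p belonged to *Fasn* (-0.13, adjusted p = 0.23), *Srebf1* (0.10, adjusted p = 0.40), *Acsl4* ILMN_2690135 (0.10, adjusted p = 0.42) and *Msmo1* (-0.10, adjusted p = 0.45). That no probe was called does not show that the compounds acted alike.

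Groups that did not overlap were counted on signals before the run term, by direction. No member probe separated BLM from Saline, where 0.477% of all probes lay above and 0.0751% below. With EXT5, 1 probe lay above and 1 below all Saline arrays (1.16% and 2.22% of all probes), and 3 lay above and 1 below all BLM arrays (0.685% and 3.37%). With EXT9, 3 lay above and 1 below all Saline arrays (1.42% and 3.51%), and 2 lay above and 0 below all BLM arrays (0.552% and 4.42%). None separated EXT9 from EXT5 (0.437% and 0.729%). On second-run arrays alone, which leave 3 arrays in Saline and in BLM, 10 of the 49 probes lay above BLM with EXT5 (5.76% of all probes) and 5 with EXT9 (5.0%), and 4 lay above Saline with each compound (4.34% and 4.61%).

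Other genes of the same routes were counted beside the members, each gene if any of its probes was called. Of all probes, 5.32% and 7.78% were called higher than Saline with EXT5 and EXT9. Of 17 tested further synthesis genes (27 probes), 0 were higher and 3 lower with EXT5 than in Saline (*Acsl3*, *Acss2* and *Mlxipl*), and 1 was higher (*Acsl5*) and 4 lower (the same 3 and *Lbr*) with EXT9, where 5.63% and 8.37% of all probes were called lower. Against BLM none was called with EXT5, and *Lbr* alone was called, lower, with EXT9. *Acss2*, which makes acetyl-CoA from acetate, gave 9.36, 10.24 and 10.44 in Saline and 9.23, 9.37 and 9.73 in EXT5, and fell by 0.57 (SE 0.14, adjusted p = 0.011), with Saline 6 as the lowest Saline array. *Lbr*, which reduces the sterol C-14 double bond in the same step as *Tm7sf2*, fell by 0.37 with EXT9 (SE 0.08, adjusted p = 0.0030). Among 6 tested genes of sterol uptake and lysosomal release was *Npc2*, which binds cholesterol inside lysosomes. In the fit with the run it was called higher than Saline with EXT5 (0.48, SE 0.09, adjusted p = 0.0023) and EXT9 (0.33, SE 0.09, adjusted p = 0.017). On second-run arrays alone the EXT5 difference was called (0.45, limma adjusted p = 0.032) and that of EXT9 was not (0.31, adjusted p = 0.099). Without the run term, which mixes run and compound, the differences were 0.14 (adjusted p = 0.60) and -0.0049 (adjusted p = 0.99). *Npc1* and *Scarb1* were called higher with EXT9, and the *Npc1* call was lost without the run term. Of the 6 genes, 1 has probes in rows where the first-run signals do not correspond to those of the second run, and its values are not given. Of 5 tested genes of the LXR and efflux list, the cholesterol exporter gene *Abcg1* was higher with EXT5 (0.72, SE 0.17, adjusted p = 0.0087) and EXT9 (0.52, SE 0.17, adjusted p = 0.041). Of 8 tested fatty acid oxidation genes, *Acadm* was lower with both compounds and *Hadha* was higher with EXT9.

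Several surfactant genes were also higher with both compounds. Of the 13 listed (22 probes), 7 were higher than Saline with EXT5 and 5 with EXT9, 1 (*Chpt1*) was lower with EXT9, and 0 were called for BLM. A gene counts here if any of its probes was called. Of all probes, 5.32% and 7.78% were called higher with EXT5 and EXT9, and 8.37% lower with EXT9. Without the run term 4 were higher with EXT5 and 3 with EXT9, and the calls of *Lpcat1*, *Slc34a2* and *Abca3* were lost. The EXT9 difference of *Lpcat1*, an acyltransferase of surfactant phospholipid, was 0.36 with the term (adjusted p = 0.046) and -0.0030 without it (adjusted p = 0.99). On second-run arrays alone it was 0.41 and not called (limma adjusted p = 0.076). There the EXT5 differences of *Lpcat1* (0.75, adjusted p = 0.0072) and *Abca3* ILMN_1243488 (0.42, adjusted p = 0.042) were called. The median difference was 0.26 with EXT5 and 0.19 with EXT9. *Sftpa1*, which encodes surfactant protein A, gave 11.89, 12.52 and 12.89 in Saline, 12.15, 12.56 and 12.83 in BLM, 12.79, 12.89 and 13.24 in EXT5, and 12.83, 12.98 and 13.13 in EXT9. It was 0.68 and 0.72 higher than Saline (SE 0.13, adjusted p = 0.0024 and 0.0011) and 0.62 and 0.67 higher than BLM (adjusted p = 0.012 and 0.0059), with some overlap of Saline and BLM arrays with the EXT groups. *Lamp3*, a lamellar body gene, was 1.13 and 1.03 higher than Saline at ILMN_2738854 (SE 0.35, adjusted p = 0.039 and 0.046) and was highest of all on Saline 6 (11.14). Its other probe, ILMN_2745667, was called with EXT5 only (1.18 and 1.04, adjusted p = 0.048 and 0.064). *Sftpb* was higher with EXT5 at ILMN_2792670 (0.40, SE 0.12, adjusted p = 0.034), with 0.10 for EXT9. Its other probe, ILMN_2733762, was called with neither compound (0.43 and 0.25, adjusted p = 0.11 and 0.33). *Sftpc*, the most specific type 2 cell gene of the list, was not called (0.19 and -0.03, SE 0.08), nor was *Sftpd* (0.10 and 0.00, SE 0.07). The brightest *Abca3* probe was not called (0.26 and 0.19, SE 0.13), while another of its probes was called with EXT5.

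Markers of some other cells differed between the same groups. Of all probes, 5.32% and 7.78% were called higher than Saline with EXT5 and EXT9, and 5.63% and 8.37% lower. Smooth muscle markers were lower than Saline with both compounds for 6 of 6 tested genes, and their summed signal over 8 genes was 10041 to 23026 in Saline, 15340 to 19976 in BLM, 6696 to 12302 in EXT5 and 8162 to 11630 in EXT9. Ciliated cell markers were lower for 5 of 6 tested genes with both, with sums over 7 genes of 5296 to 14192, 7255 to 12919, 4112 to 7621 and 5473 to 6906. Alveolar macrophage markers were higher for 5 of 7 tested genes with both, and for 3 of 7 without the run term, with sums over 9 genes of 3309 to 7690, 4414 to 11567, 7150 to 10470 and 6825 to 10461. Alveolar type 2 markers were higher for 7 of 10 with EXT5 and 5 of 10 with EXT9, and for 6 and 4 without the run term. Of 4 tested club cell genes, 0 were called with EXT5 and 1 was higher with EXT9. None of 5 tested endothelial genes and 3 tested T cell genes was called against Saline with either compound. Of 3 tested erythroid genes, 1 was higher with EXT5 and 2 with EXT9, and 2 and 3 without the run term. Some of the other counts also depended on that term. Without it the club cell genes *Aldh1a7* and *Scgb1a1* were called lower with EXT5, and *Aldh1a7* with EXT9. The endothelial genes *Cdh5* and *Pecam1* were then called higher with EXT9. The part of these cell types in the differences of the synthesis genes was not tested. Over the 15 member probes called against Saline with either compound, the second-run array Saline 6 lay within the range of the 12 EXT arrays for 11, Saline 4 for 3 and Saline 2 for 0, and the first-run arrays Saline 1, 3 and 5 for 6, 9 and 9. The BLM arrays lay within it for 5 to 12 of the 15. These 15 probes were chosen by their difference from Saline, so low counts for Saline arrays follow in part from that choice. The same count over all called probes was not made.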

How the data were processed

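Total RNA of distal lung tissue was hybridised to Illumina MouseWG-6 v2 arrays, 24 in all. The values deposited by the authors are linear signal intensity after quantile normalization, and were put on the log2 scale here (pseudocount 0). The normalization software is not given in the sources used here. Runs were inferred from the sorted values, which agree within 6 and within 18 arrays, whereas the design text implies 5 repeated arrays. The set with the EXT arrays was named the second run here. The authors' other table has 48 columns (intensity before normalization, and detection p-values) that no label ties to a sample. Only the order of its rows was used. Probe symbols are those of GEO's platform annotation.

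The 50% of probes with the higher mean were kept (22640, mean log2 above 6.71). Group means and the run were fitted with limma 3.58.1 in R 4.3.3 on all kept probes, in 6 comparisons, with Benjamini-Hochberg adjustment within each. The methods used SAM with no covariate, and the fit without the run is an alternative. In 602 rows, in 5 stretches of the table, first-run signals do not correspond to those of the second run at the same probe; 0 member probes are among them. The fit was checked on simulated arrays. Medians over genes use the brightest probe. Correlations of residuals used 100000 permutations of arrays within group and run (Python 3.11.15, numpy 2.4.6). Promoter sequences are from RefSeq.

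The members, the lists and the alternatives were chosen with earlier results of these data known. Genes named with values are every member called in any comparison, the member of smallest p in each role group, members whose probes disagree, the SREBP regulators, and the surfactant protein genes, *Abca3* and *Lamp3*. Same-numbered arrays of different groups did not deviate together, so the numbers were not used as pairs. Array number limits the precision.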

Additional observations from a re-analysis of the deposited data

Results flagged for a closer look

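Of 128 sets of 6 arrays (32 genes in 4 groups), 5 held an array far from the other 5, where chance gives about 1 in 20 sets, or 6.4. The gap of that array, as a share of the whole range, was 0.787 for *Elovl6* in Saline (Saline 4 at 8.65, the next at 7.31) and 0.724 for *Elovl6* in EXT5 (EXT5 3 at 7.36, the next at 7.07). Both arrays are among the 4 with high *Adipoq*. It was 0.677 for *Fads1* in Saline, with Saline 4 low at 12.36 and the next at 12.56. It was 0.673 for *Ebp* in Saline, with Saline 6 low at 9.37 and the next at 9.77. It was 0.715 for *Hsd17b7* in EXT5, with EXT5 3 low at 8.52 and the next at 8.93, and its EXT5 difference from Saline was called under 9 of 36 alternatives.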

How the results depend on the processing

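None of the 36 called differences changed sign under the alternatives run, and 3 were called under all of them: *Pmvk* with EXT9 against Saline and BLM, and *Srebf1* with EXT9 against BLM. Without the run term the median over genes was 0.038 for EXT9 against Saline, 0.015 for EXT5 against BLM and -0.009 for EXT9 against BLM. All EXT arrays were in the second run, so these medians hold part of the run difference. Its fitted median, second run minus first, was -0.106 over all tested probes, of which 8122 differed between runs, so this shift is not particular to the members. On second-run arrays alone the median for BLM against Saline was -0.032, and 4, 5, 2 and 3 probes were called (EXT5 and EXT9 against Saline, then against BLM), with 0 correlations with *Abca3* past the threshold. With the compared groups alone 3 probes were called for EXT5 against Saline, for EXT9 against Saline and for EXT9 against BLM. With no filter on dim probes 3 were called for each compound against BLM. With array weights 2 were called for BLM against Saline and 12 for EXT5 against BLM. With the replicate number as a block, which is not a pairing here (correlation of same-numbered residuals -0.40 to 0.37, median -0.02, over 36 pairs), 2 and 3 were called for EXT5 and EXT9 against BLM. Leaving out the arrays with high *Adipoq*, chosen after seeing the data, gave 5, 6, 1 and 3 calls in the order above, and a median of 0.143 for EXT5 against Saline. The cause of the other shifts was not tested.

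Leaving out 1 array at a time, the counts ran from 0 to 2 (BLM against Saline), 7 to 16 and 8 to 16 (EXT5 and EXT9 against Saline), 1 to 10 and 3 to 9 (against BLM) and 0 to 0 (EXT9 against EXT5), each highest without Saline 6 where calls were made, and lowest against Saline without Saline 2 or Saline 4. The medians ran from 0.002 to 0.034, 0.082 to 0.131, 0.071 to 0.129, 0.078 to 0.117, 0.046 to 0.085 and -0.044 to -0.006 in the same order. Of the 49 probes, 16 had a mean under 7, near the filter limit of 6.71.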
